A study of Mus musculus with 24 samples.

Results

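The 9 genes Cdh5, Emcn, Esam, Robo4, Egfl7, Vwf, Pecam1, Kdr and Tek, which are expressed by the endothelium that lines blood vessels, were followed in mouse testis with and without NSun2, an enzyme that methylates cytosines in RNA. The genes were taken by symbol, and 19 of the 45278 probes on the array carry 1 of the 9 symbols, out of 19057 gene symbols in all. Total RNA of whole testis was read on 24 single-colour Illumina beadchip arrays that form 4 groups of 6. Mice of 15 and of 49 days of age were sampled, in each case wild-type (WT) animals and animals with NSun2 knocked out (KO). All mice were F1 animals of CBA and C57BL/6J. The knock-outs came from a pair of lines, the gene-trap embryonic stem cell line D014D11 and the Nsun2tm1a(EUCOMM)Wtsi allele, without a label that ties an array to its line. The labels name no promoter or cell type that would restrict the mutation. The labels do not state that the arrays are separate animals, and the p-values therefore measure the spread between these samples, which may be technical.

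Endothelial cells are held together by adhesion molecules at their contacts and are controlled by growth factor receptors on their surface. Cdh5 encodes VE-cadherin, the cadherin of endothelial adherens junctions, and Esam and Pecam1 encode immunoglobulin-family adhesion molecules of the same contacts. Emcn encodes endomucin, a mucin-like protein on the surface of capillaries and veins. Kdr is the main signalling receptor for vascular endothelial growth factor, Tek is the receptor for angiopoietins, and Robo4 is the endothelial member of the Roundabout receptor family, which stabilises vessels. Egfl7 is secreted by endothelial cells, and Vwf encodes von Willebrand factor, which endothelial cells store and release in clotting. In the testis, blood vessels run in the interstitium between the seminiferous tubules, and none lie inside the tubules, where germ cells and Sertoli cells are. Between the ages sampled here, spermatids fill the tubules, so that the vessels make up a smaller part of the organ. In whole-tissue RNA, fewer endothelial cells and less RNA per endothelial cell cannot be told apart.

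Promoter sequences from RefSeq (GRCm38.p6) were available for 5 of the 9 genes, and those of 3 genes that were higher in the KO at 49 days are shown, because ETS-family factors, which bind GGAA cores, are known regulators of endothelial genes. Each sequence is the 250 bases before the annotated start on the plus strand, written 5′ to 3′, at chr9:37401722-37401971 for Robo4, chr3:137340828-137341077 for Emcn and chr4:94739039-94739288 for Tek. Capitals mark CAGGAA or CCGGAA, or their reverse complements TTCCTG and TTCCGG.
Robo4: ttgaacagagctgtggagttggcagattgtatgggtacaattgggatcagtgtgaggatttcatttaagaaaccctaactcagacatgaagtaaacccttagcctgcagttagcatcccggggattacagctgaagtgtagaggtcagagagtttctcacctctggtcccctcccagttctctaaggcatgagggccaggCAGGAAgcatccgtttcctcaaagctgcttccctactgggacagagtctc
Emcn: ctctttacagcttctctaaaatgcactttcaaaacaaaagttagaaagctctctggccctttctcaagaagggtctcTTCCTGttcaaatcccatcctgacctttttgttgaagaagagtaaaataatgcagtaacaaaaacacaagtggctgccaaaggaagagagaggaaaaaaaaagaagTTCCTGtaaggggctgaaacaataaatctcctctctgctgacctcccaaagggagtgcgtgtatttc
Tek: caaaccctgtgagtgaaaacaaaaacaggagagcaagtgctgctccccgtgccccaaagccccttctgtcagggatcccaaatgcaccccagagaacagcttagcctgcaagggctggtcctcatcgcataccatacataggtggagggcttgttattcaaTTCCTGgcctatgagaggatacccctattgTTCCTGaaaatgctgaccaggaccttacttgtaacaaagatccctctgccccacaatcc

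Counted from the annotated start, the marked letters begin at -50 in Robo4, at -173 and -67 in Emcn, and at -89 and -59 in Tek. CAGGAA or CCGGAA, on either strand, stood in at least 1 annotated promoter of all 5 genes with a sequence (Robo4, Emcn, Tek, Egfl7 and Kdr), against 35.1% of the 32851 promoters of the same length in the table. That share is counted per promoter and the members per gene, and 1 of the 3 promoters of Egfl7 held neither. CAGGAA was in 25.7% of all promoters and CCGGAA in 3952 of them. A GATA core, AGATAA on either strand, was in none of the promoters of these 5 genes and in 3281 of all. The SP1 box GGGCGG, on either strand, was in a promoter of Kdr and 1 of the 3 promoters of Egfl7, and in 32.7% of all. The matches describe these letters only.

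The 6 arrays per group limit the precision. Between 16267 and 19051 probes per array were above background, which means that fewer than 1% of the dim control rows were brighter. The fit covered the brighter 22639 of the 45278 probes, and each of 12166 genes was represented by its brightest tested probe. The targeted gene has 1 probe, and Nsun2 was above background on none of the 12 KO arrays. Its WT signal was dim too: the 15-day WT group had 5 arrays above background, and the 49-day WT group had 3. KO and WT levels overlapped in the 49-day groups and did not overlap in the 15-day groups. In the KO Nsun2 was lower by at least 1.16-fold on 15-day arrays (limma adjusted p = 3.06e-04) and by at least 1.17-fold on 49-day arrays (limma adjusted p = 5.44e-05). Where the probe lies relative to the inserted cassettes is not given in the labels. The markers of the tissue itself were present, with all 11 tested Sertoli cell genes above background on every 15-day array. Some arrays stood apart. Replicate D of the 49-day KO differed from the WT mean by -4.18 in its mean round spermatid log2 level, while its 5 companions differed by -0.44 to -2.56. At 15 days the mean elongating spermatid level was 7.67 on KO replicate B and 6.87 on WT replicate A, against 5.68 to 5.99 on the other 10 arrays of that age.

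Of the 9 genes, 8 had a tested probe and 13 of the 19 probes were tested. The exception was Kdr, whose 2 probes were above background on none of the 24 arrays and were not tested. Its brighter probe had log2 means of 5.34, 5.50, 5.29 and 5.32 in WT at 15 days, KO at 15 days, WT at 49 days and KO at 49 days, with SDs of 0.19 to 0.24 (n = 6). A probe at background gives no level for the transcript, so nothing about the vascular endothelial growth factor receptor can be read from these arrays. All levels below are log2 values after background correction and quantile normalization, and a level is compared with other groups for the same probe only.

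**Figure D1:**
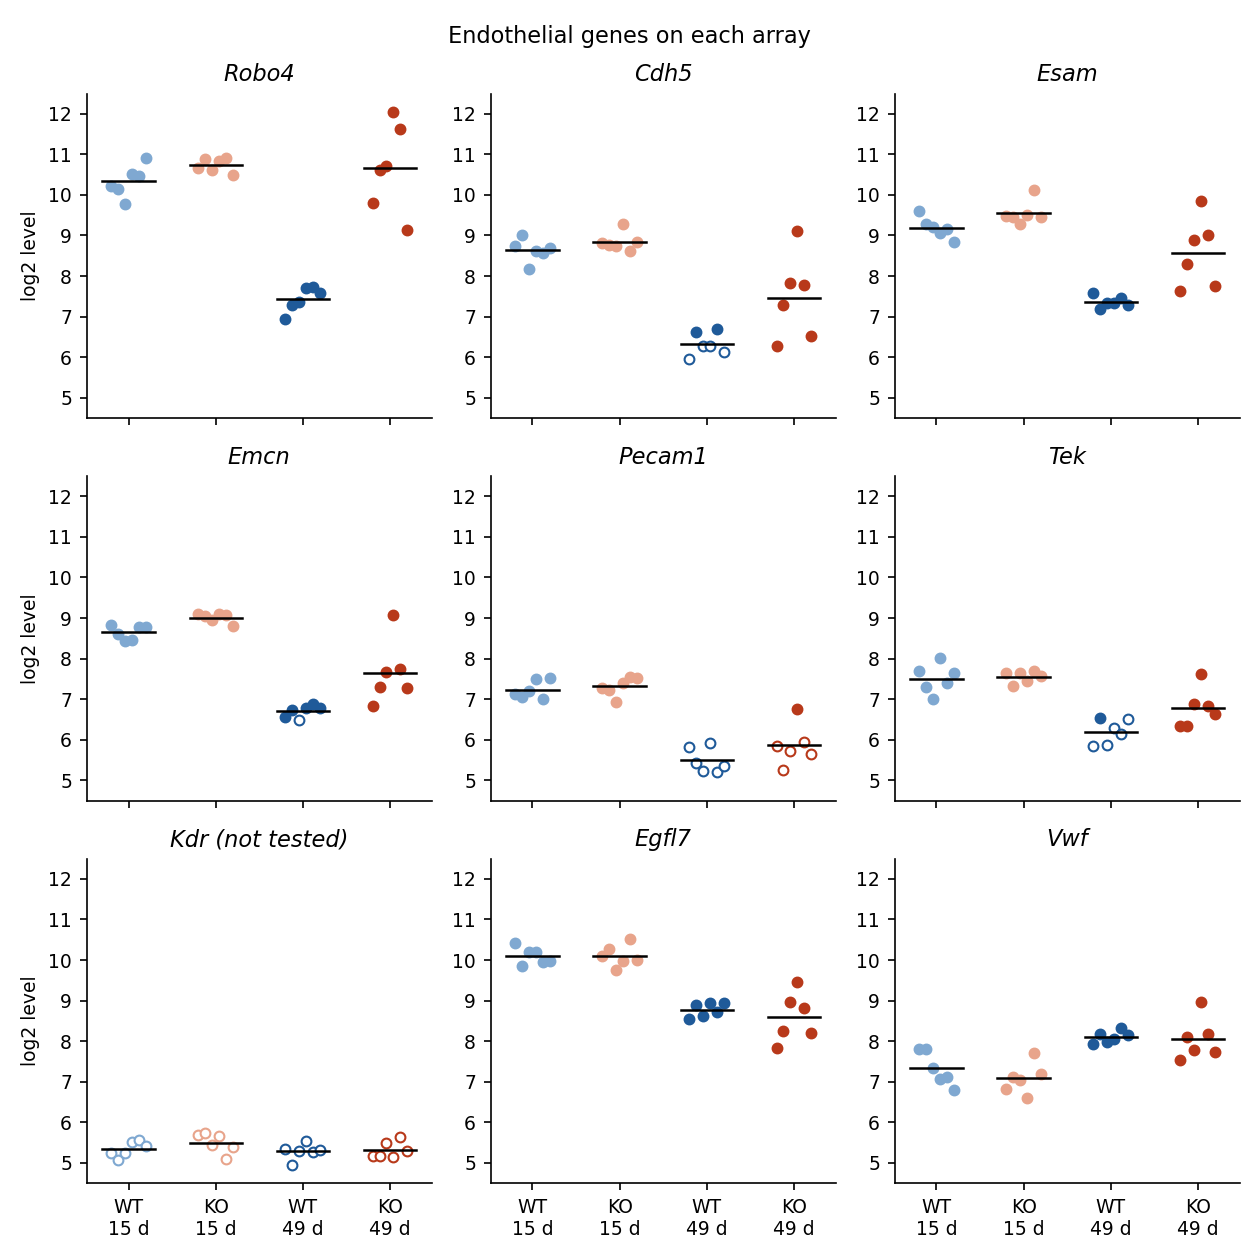
Log2 level of the brightest probe of each of the 9 genes (vertical axis) on each of the 24 arrays, by group (horizontal axis). Filled points are above background, open points are not, and black lines are group means (n = 6). Robo4 in the 49-day KO (9.14 to 12.05) reaches the 15-day levels, while 49-day WT arrays stay between 6.93 and 7.72.

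In WT testis the endothelial genes fell with age. From 15 to 49 days, 7 of the 8 tested genes were lower and Vwf was higher (limma, adjusted p under 0.05), against 55.2% of all 12166 genes called lower and 27.9% called higher. The median log2 change of the 8 was -1.79, and -1.58 with a gene below background set to its bound, beside -0.58 for all genes. The 2 age groups did not overlap for any of the 8, which held for 74.7% of all genes.

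The receptor Robo4 ran from 9.78 over a median of 10.34 to 10.91 in WT at 15 days and from 6.93 over 7.47 to 7.72 at 49 days. Every 49-day array lay more than 2 log2 units below every 15-day array. Its log2 change was -2.91 (SE 0.33, limma adjusted p = 2.59e-08), the largest fall among the 8 genes. The junctional cadherin Cdh5 went from 8.18, 8.66 and 9.02 (lowest, median and highest) to 5.96, 6.27 and 6.69, a log2 change of -2.31 (SE 0.31, limma adjusted p = 3.17e-07). Only 2 of its 6 WT arrays at 49 days were above background, so the size of that fall depends on the background step. Its dimmer probe, above background on none of these 6 arrays, was at least 1.10-fold lower.

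The surface mucin Emcn fell by 1.94 on the log2 scale (SE 0.23), from 8.42 to 8.82 on the 15-day arrays to 6.48 to 6.89 on the 49-day arrays. The adhesion molecule Esam fell by 1.83 (SE 0.26) from a range of 8.84 to 9.60 to one of 7.18 to 7.58. Both genes had narrow, separate groups. Pecam1, an adhesion molecule that also lies on platelets and leukocytes, was above background on all 6 WT arrays at 15 days and on none at 49 days, and was at least 1.56-fold lower (limma adjusted p = 1.53e-08). The angiopoietin receptor Tek fell by 1.31 (SE 0.19, limma adjusted p = 1.38e-06), and 1 of its 6 arrays at 49 days was above background.

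The secreted factor Egfl7 fell by 1.33 (SE 0.20, limma adjusted p = 2.06e-06), from 9.87 to 10.43 at 15 days to 8.56 to 8.95 at 49 days. Its second probe fell by 1.39 (SE 0.20). The third probe, annotated to another transcript, was not above background in WT, and its change is not given. Vwf moved against the other genes. It ran from 6.80 over 7.23 to 7.82 in WT at 15 days and from 7.94 over 8.10 to 8.32 at 49 days, and rose by 0.77 (SE 0.22, limma adjusted p = 0.00235). Within the 4 slides the WT age change was below 0 on every slide for Robo4, Cdh5, Emcn, Esam, Pecam1, Tek and Egfl7, and above 0 on every slide for Vwf.

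At 49 days 5 of the 8 endothelial genes were higher in the KO than in WT, and none was lower. Robo4 was 9.35-fold higher, Esam 2.31-fold, Cdh5 2.21-fold and Emcn 1.92-fold, and Tek rose by 0.58 on the log2 scale. Pecam1, Egfl7 and Vwf did not pass the test. In the same comparison 46.8% of all 12166 genes were called higher and 26.5% lower, so that 5 of 8 is read against a background in which most genes moved. The median log2 change of the 8 was 0.76, beside 0.30 for all genes. With cyclic loess in place of quantile normalization the median of all genes moved to -0.07 and that of the 8 to 0.39, which left the 8 at 0.47 above all genes against 0.46 before. Under that scaling 4 were higher, Tek did not pass at 0.24 (limma adjusted p = 0.234), and Egfl7 was called lower at -0.60 (limma adjusted p = 0.00247).

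Robo4 stood far above the rest. The 6 KO arrays at 49 days, A to F, read 9.80, 10.61, 10.72, 12.05, 11.62 and 9.14, and the 6 WT arrays read 6.93, 7.28, 7.35, 7.71, 7.72 and 7.59. The lowest KO array was above the highest WT array, and the KO arrays were spread more widely than the WT arrays (SD 1.09 against 0.31, n = 6). The log2 change was 3.23 (SE 0.33, 95% interval 2.55 to 3.90, limma adjusted p = 1.07e-07), the second largest rise of the 12166 genes. It was between 2.90 and 3.61 on the 4 slides, and 2.95 without KO replicate D. The call rests on 1 probe: the second tested Robo4 probe gave -0.0006 (limma adjusted p = 0.998) and was above background on 2 of 24 arrays, and the other 2 were above background on none. Averaged with that dim probe, the Robo4 change was 1.61.

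Of the adhesion molecules of endothelial contacts, Esam and Cdh5 were higher and Pecam1 did not pass. Esam ran from 7.64 over a median of 8.59 to 9.86 on the KO arrays, and read 7.58, 7.18, 7.33, 7.34, 7.46 and 7.29 on WT arrays A to F. The groups did not overlap, but KO replicates A (7.64) and F (7.74) lay just above the highest WT array. The log2 change was 1.21 (SE 0.26, limma adjusted p = 3.06e-04), and 0.95 without KO replicate D. Robo4 and Esam were the members with groups that did not overlap, where 39.1% of all genes had such groups.

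Cdh5 read 6.29, 7.30, 7.82, 9.12, 7.79 and 6.51 on the KO arrays, and ran from 5.96 over 6.27 to 6.69 on the WT arrays. KO replicates A and F lay within the WT range and the other 4 above it. The log2 change was 1.15 (SE 0.31, limma adjusted p = 0.00227). The dimmer second probe exceeded background on 2 of the 6 49-day KO arrays and on no WT array of that age, so no change is given for it. Pecam1 was above background on KO replicate D and on no other array of this age, so no fold is given. Its fitted log2 change was 0.37 (SE 0.19, limma adjusted p = 0.0876), and its second tested probe gave 0.39 (limma adjusted p = 0.133).

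Emcn read 6.82, 7.30, 7.67, 9.06, 7.75 and 7.29 on the KO arrays and ran from 6.48 over 6.76 to 6.89 on the WT arrays. KO replicate A lay within the WT range. The log2 change was 0.94 (SE 0.23, limma adjusted p = 8.98e-04). The receptor Tek had the smallest rise that passed, 0.58 (SE 0.19, limma adjusted p = 0.0104), with KO arrays from 6.34 over 6.74 to 7.61 and WT arrays from 5.84 over 6.22 to 6.54. All 6 KO arrays of Tek were above background against 1 WT array, and the ranges overlapped. Without background correction, where dim probes are compressed, the changes of Cdh5, Emcn and Tek were 0.51, 0.45 and 0.20 and still passed.

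The secreted factor Egfl7 and Vwf did not pass the test. Egfl7 ran from 7.83 over 8.54 to 9.47 in the KO and from 8.56 over 8.81 to 8.95 in WT. The KO arrays lay on both sides of the WT range, and the log2 change was -0.19 (SE 0.20, 95% interval -0.60 to 0.23, limma adjusted p = 0.415). Its second probe gave -0.31 and did not pass. Vwf ran from 7.54 over 7.94 to 8.98 in the KO and from 7.94 over 8.10 to 8.32 in WT, with a log2 change of -0.05 (SE 0.22, 95% interval -0.50 to 0.40, limma adjusted p = 0.846). The interval of Vwf holds the median change of all genes, 0.30, and that of Egfl7 lies below it.

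**Figure D2:**
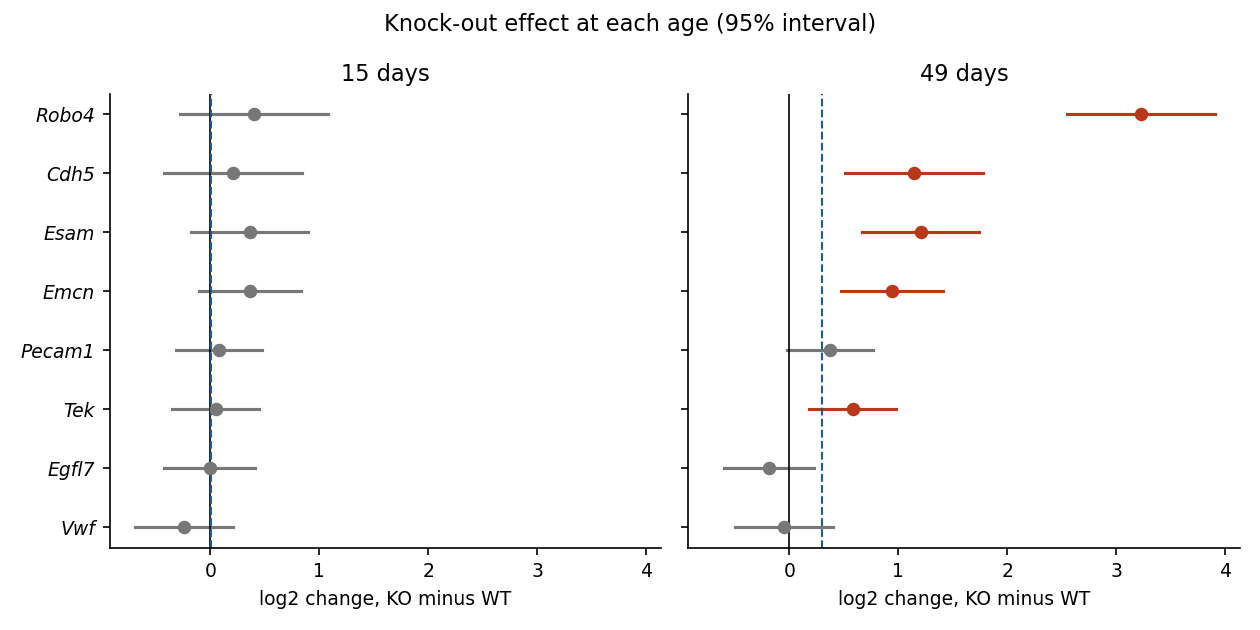
Log2 change, KO minus WT, of the 8 tested endothelial genes at 15 days (left) and 49 days (right), as points with 95% intervals from the fit (6 arrays per group). Red marks an adjusted p under 0.05 and the dashed line is the median of all 12166 genes, 0.0043 at 15 days and 0.30 at 49 days. Robo4 at 3.23 stands apart from the other genes at 49 days.

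**Figure D3:**
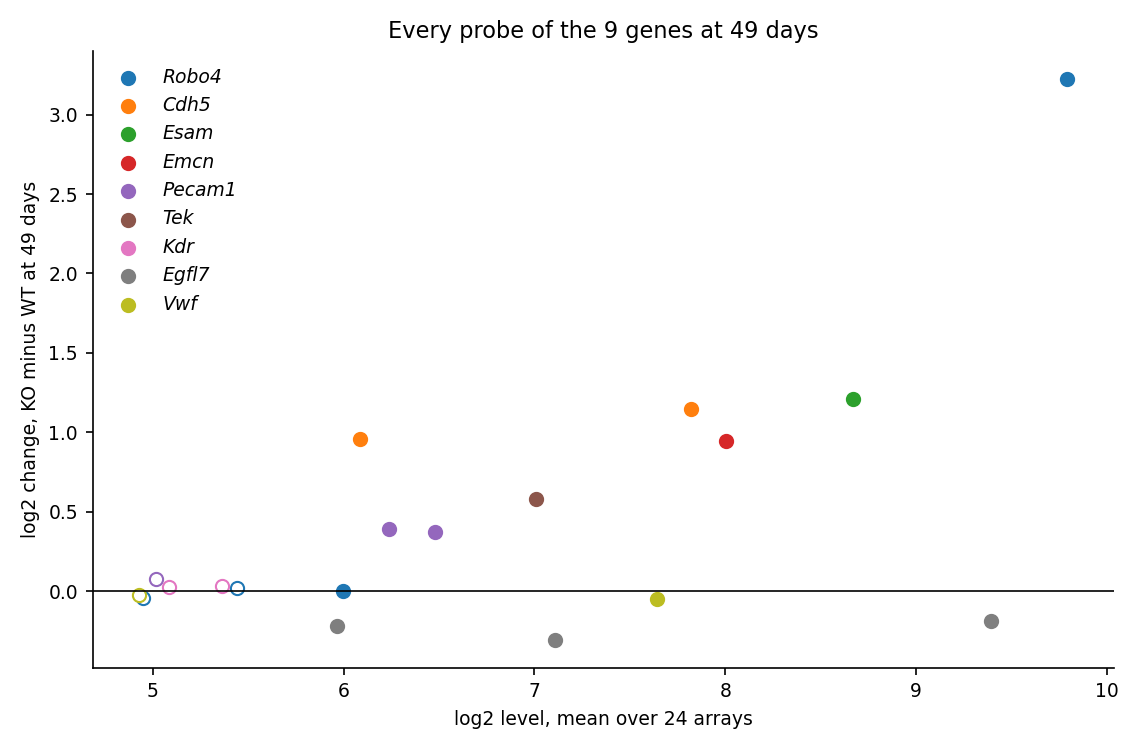
Log2 change, KO minus WT at 49 days (vertical axis), of each of the 19 probes of the 9 genes against its mean log2 level over the 24 arrays (horizontal axis). Filled points were tested and open points lie below the tested range. The bright Robo4 probe is at 3.23 and its dimmer tested probe at -0.0006.

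The KO arrays at 49 days were ordered alike for most of these genes. Replicate D was the highest KO array for all 8 genes. The mean of the 8 genes lay above the WT mean by 0.21 on replicate A and 0.32 on F, by 0.63 on B and 1.01 on C, and by 2.06 log2 units on D, with E between C and D. On the same arrays the mean of 11 Sertoli cell genes lay above the WT mean by 0.67, 1.71, 2.04, 2.85, 2.06 and 0.69 (A to F), and the mean of 14 round spermatid genes differed from it by -0.56, -1.64, -2.56, -4.18, -2.23 and -0.44. Replicates A and F were thus nearest to WT in all 3 lists and replicate D farthest. The spermatid and Sertoli levels moved with the endothelial genes, and their part in the result was not tested. Without replicate D the test still called 5 of the 8 genes higher, and the median of all 8 was 0.54 beside 0.27 for all genes. The share of all genes called higher was 46.8% with replicate D and is not given without it, so that count is not set against a background.

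**Figure D4:**
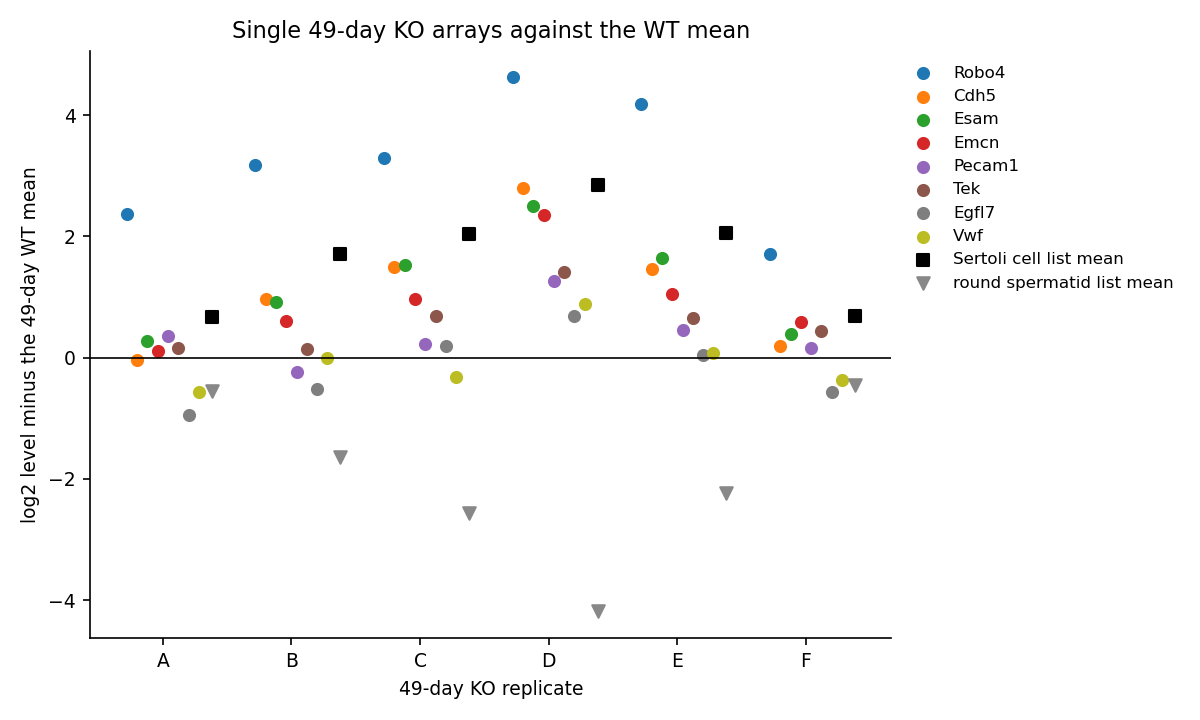
Log2 level minus the 49-day WT mean (vertical axis) on each 49-day KO array, A to F (horizontal axis), for the 8 tested endothelial genes (circles), the mean of 11 Sertoli cell genes (black squares) and the mean of 14 round spermatid genes (grey triangles). Robo4 lies between 1.71 and 4.62 above the WT mean, and on replicate D all 8 genes are above it.

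At 15 days none of the 8 genes passed the test between KO and WT in the main fit, and none had an unadjusted p under 0.05 there. Of all genes, 1.10% were called higher and 3.59% lower at this age. The median log2 change of the 8 was 0.14, beside 0.0043 for all genes. Robo4 ran from 10.49 over 10.76 to 10.91 in the KO and from 9.78 over 10.34 to 10.91 in WT, and its KO arrays lay in the upper part of the WT range. Its log2 change was 0.40 (SE 0.33, 95% interval -0.28 to 1.08, limma adjusted p = 0.598). Emcn ran from 8.80 over 9.06 to 9.11 in the KO against 8.42 over 8.70 to 8.82 in WT. Only KO replicate F reached into the WT range, and the change was 0.36 (SE 0.23, limma adjusted p = 0.441). That SE pools the spread of all groups. The SDs of Emcn were 0.18 (WT) and 0.12 (KO) at 15 days, against 0.77 in the 49-day KO. Emcn was called higher when only the 15-day arrays were fitted, and also with array weights. Esam changed by 0.36, Cdh5 by 0.21, Pecam1 by 0.08, Tek by 0.05, Egfl7 by -0.01 and Vwf by -0.25, with SEs of 0.19 to 0.31. Robo4, Emcn and Cdh5 were above 0 on all 4 slides.

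The KO effects at the 2 ages were compared directly. The difference passed the test for 1 of the 8 genes, Robo4, at 2.83 (SE 0.46, 95% interval 1.87 to 3.79, limma adjusted p = 1.33e-04), the seventh largest among all genes. In this test 52.9% of all genes were called in either direction and 16.9% were called lower. Esam (0.85, SE 0.37, limma adjusted p = 0.0592) and Cdh5 (0.94, SE 0.43, limma adjusted p = 0.0770) did not pass, although their unadjusted p-values were 0.030 and 0.041. Leaving out 1 array moved the count: it was 2 without KO replicate E of 15 days, 3 without KO replicate F of 49 days and 4 without KO replicate A of 49 days. The difference was 0.58 for Emcn, 0.53 for Tek, 0.29 for Pecam1, 0.19 for Vwf and -0.18 for Egfl7, and none of these passed.

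In KO testis, from 15 to 49 days, 6 of the 8 genes were lower and Vwf was higher, where 58.2% of all genes were called in either direction and 34.3% were called lower. Cdh5 fell by 1.37, Emcn by 1.36, Esam by 0.98, Tek by 0.78, Pecam1 by 1.46 and Egfl7 by 1.51, with SEs of 0.19 to 0.31, and Vwf rose by 0.97 (SE 0.22). Robo4 changed by -0.08 (SE 0.33, 95% interval -0.76 to 0.60, limma adjusted p = 0.850), and by 0.70 with array weights, where it passed (limma adjusted p = 0.00149). Its 49-day KO arrays (9.14 to 12.05) lay on both sides of its 15-day KO arrays (10.49 to 10.91). The levels of Robo4 thus ran, from low to high, WT at 49 days, then WT at 15 days, KO at 49 days and KO at 15 days, whose means of 10.34, 10.66 and 10.74 lay within the SD of the 49-day KO arrays, 1.09. For Cdh5, Esam, Emcn and Tek the order was WT at 49 days, KO at 49 days, WT at 15 days and KO at 15 days, and the test did not separate the 15-day groups. Of the neighbours in the middle, the 49-day KO and 15-day WT means lay within 1 SD of the KO arrays for Esam (8.57 ± 0.84 against 9.19 ± 0.25, SD, n = 6) and not for the other 3 genes. For Pecam1, Egfl7 and Vwf the order followed age: the 15-day groups were above the 49-day groups for Pecam1 and Egfl7 and below them for Vwf, and the test did not separate the genotypes within an age.

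Genes around the 9 members were examined in lists of known endothelial, mural and partner genes. Of 34 other endothelial genes, 21 were tested, and at 49 days 10 were higher in the KO, 5 lower and 6 did not pass. These counts are near the shares over all genes, 46.8% higher and 26.5% lower. With cyclic loess normalization 4 were higher and 6 lower, and the shares over all genes also turned, as given below. Their median log2 change was 0.47, beside 0.30 for all genes. It was 0.05 with the 4 genes dim in WT only set to their bounds, or counted as unchanged where there was no bound. Another 2 of the 21 were above background on no 49-day array. Cd34, a surface mucin of vessels and blood precursors, rose by 1.48, and the ETS-family factor Ets1 by 1.21. Eng, a co-receptor of the transforming growth factor family, was above background on no WT array and was at least 1.71-fold higher. The transcription factors Sox17 and Gata2 fell by 1.79 and 0.86, and Nos3, the endothelial nitric oxide synthase, fell by 1.35. In WT testis Sox17 and Nos3 had risen with age, by 3.10 and 1.13. Of the 21 genes 13 fell with age in WT and 3 rose, against 55.2% and 27.9% of all genes. Ramp2 (-2.56) and Cd34 (-2.40) were among the falls. At 15 days none of the 21 passed, and the largest values were 0.54 for Cd93 and 0.48 for Gata2.

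The ligands and partners of the receptors were tested as 10 genes, of which 6 were higher in the KO at 49 days and none lower (median 1.18, and 0.90 with bounds). Among the 10, 2 were above background on no 49-day array. Of all genes, 46.8% were called higher and 26.5% lower in this comparison. Nrp1, a co-receptor for vascular endothelial growth factor, rose by 1.87 and the growth factor Vegfa itself by 1.55. Slit2, a ligand of the Roundabout family, was at least 1.87-fold higher. In WT testis 9 of the 10 had fallen with age, with Nrp1 at -2.50 and Slit3 at -2.49, where 55.2% of all genes were called lower. Of the tested catenins and junction proteins that work with Cdh5, Esam and Pecam1, all 8 were higher in the KO at 49 days (median 1.40), also with cyclic loess normalization. Ctnna1, which links cadherins to actin, rose by 1.64, the junctional adhesion molecule Jam2 by 1.62 and F11r by 1.48. These genes are expressed by many cell types besides endothelium, Sertoli cells among them.

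For the storage and clotting role of Vwf, 8 genes of its binding partners and of platelets were tested. At 49 days 2 were higher and 1 lower in the KO, with a median of 0.12. That median says little, because 4 of the 8 were above background on no array of either 49-day group. The counts here and below are read against 46.8% of all genes called higher and 26.5% called lower. The platelet chemokine Pf4 rose by 1.52, the platelet receptor subunit Gp5 fell by 0.75, and the clotting factor F8, which von Willebrand factor carries in blood, was at least 1.41-fold higher. Of 4 lymphatic endothelial genes 2 were higher and 1 lower, with Pdpn at 1.85, Ccl21a at 0.97 and Prox1 at -2.62. With cyclic loess 1 was higher and 1 lower, to be read against the shares for that normalization given below. Pdpn and Prox1 are also expressed outside lymphatic vessels. Of 8 pericyte genes 4 were higher and 1 lower. At 49 days, however, 5 of the 8 were above background on KO arrays only, and 1 on no array. The median of 0.61 became 0 when these 5, none of which had a lower bound, were counted as unchanged. Mcam, which endothelium also expresses, rose by 1.35. Of 8 hypoxia response genes 5 were higher and 1 lower, with the glucose transporter Slc2a1 at 1.36 and Ankrd37 at -0.92. Their median was 0.78, and 0.65 with 1 dim gene without a bound counted as unchanged.

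Markers of other cells moved in the same comparison at 49 days, where 46.8% of all genes were called higher and 26.5% lower. All 11 Sertoli cell genes were higher (median 1.66, and 1.51 with bounds), as were 6 of 7 Leydig cell genes (1.43), 5 of 7 peritubular myoid and smooth muscle genes with 1 lower (1.36), 7 of 9 macrophage genes with 1 lower (1.25) and 3 of 4 red blood cell genes (1.06). Spermatid genes were lower: 13 of the 14 for round spermatids (median -1.90) and 12 of the 14 for elongating spermatids (median -2.60). The array means of the macrophage list ran from 8.53 to 8.90 in WT and from 9.07 to 10.63 in the KO, and those of the Sertoli list from 9.21 to 9.63 in WT and from 10.12 to 12.29 in the KO. The median of the 8 endothelial genes, 0.76, was thus above that of all genes and below those of the lists of Sertoli, Leydig, myoid, macrophage and red blood cells, and no test of these differences between lists was made. At 15 days, when the endothelial genes did not pass, 1 macrophage gene, Lyz2, was higher by 1.40 (limma adjusted p = 0.0391) and none of the Sertoli, Leydig, myoid or red blood cell genes passed. Of 14 round spermatid genes 1 was lower at 15 days, Acr, an acrosomal protease, which was above background on no KO array and at least 2.63-fold lower (limma adjusted p = 0.00398). The array means of that list ran from 6.17 to 6.76 in the KO and from 6.74 to 7.17 in WT at this age, and none of the 14 elongating spermatid genes passed.

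**Figure D5:**
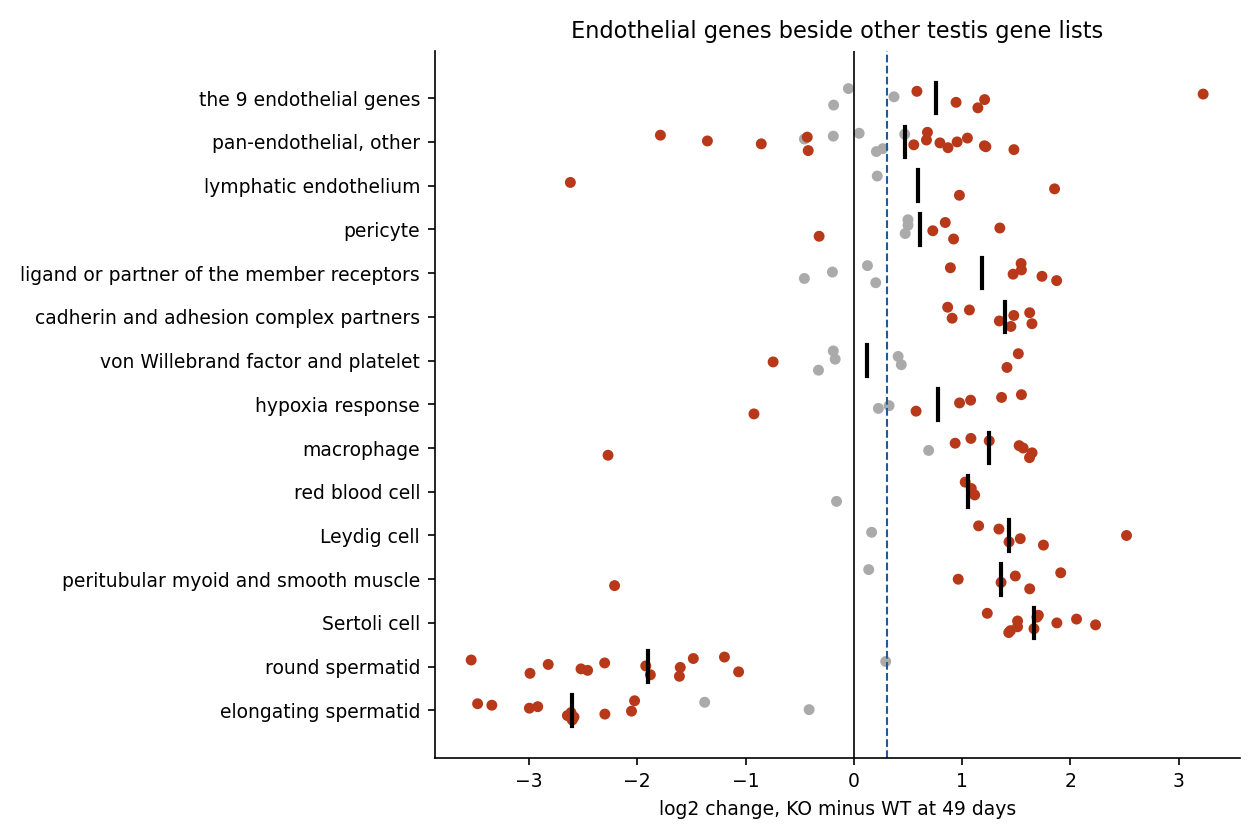
Log2 change, KO minus WT at 49 days (horizontal axis), of each tested gene (points) in the 9 endothelial genes and 14 other lists (vertical axis). Red points passed the test, grey points did not, black bars are list medians and the dashed line is the median of all genes, 0.30. Robo4 at 3.23 lies above all 11 Sertoli cell genes, whose highest is Fshr at 2.23.

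Likeness to Robo4 was measured as Pearson's r of the log2 levels over the 24 arrays, which fall into 4 groups, so that r mainly reflects the group means. The 5 most alike genes were Arap2 (r = 0.982), Ostm1 and Hacd3 (both 0.978), Mgarp (0.978) and Cpe (0.977). For the mean of the 8 tested members they were Lamc1 (0.987), Pygb (0.987), Evc (0.986), Kif1a (0.985) and Ets2 (0.984). Each of the 10 was higher in the KO at 49 days, by 1.22 (Ostm1) to 2.11 (Cpe), less than Robo4. Because they were picked for likeness over the same arrays, that shared direction is no separate result. Robo4 and Esam lie close together on chromosome 9 with 2 annotated genes, Robo3 and Msantd2, between them, neither of which was tested. The tested genes on either side, chosen after their values were seen, moved both ways at 49 days: Slc37a2 changed by 0.91, in the direction of Robo4 and Esam, and Ccdc15 by -1.23, Tmem218 by -0.43, Pknox2 by -1.63 and Tbrg1 by -0.67 (all limma adjusted p under 0.05).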

How the data were processed

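Bead summary intensities of 45278 probes and 956 control rows per array were deposited by the authors on a linear scale and not normalized. The log2 values that the authors also deposited were matched to within 3.62e-05 by quantile normalized log2 intensities, which hold no background subtraction. Scanner and software are not given in the sources, and the depth of an array is its signal over background. Gene symbols came from the platform annotation, updated by gene identifier, and promoters from RefSeq (GRCm38.p6).

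Intensities were corrected by normexp with an offset of 16, using 946 control rows with a median under 400, and quantile normalized with limma 3.58.1 in R 4.3.3. The offset understates changes of dim probes. The share of 0.5 of probes with the highest mean was tested with lmFit and eBayes, as 4 group means over 24 arrays (20 residual degrees of freedom), two-sided, with Benjamini-Hochberg adjustment over all 22639 tested probes and a threshold of 0.05. The fit pools the spread of a probe over the 4 groups. The 49-day KO arrays had the widest SD for each of the 8 tested members. SEs can therefore be too small at 49 days and too large at 15 days. A gene is its brightest tested probe. Where a group had no array above background, folds are lower bounds against each array's dimmest probe above background. In list medians with bounds, such a gene was counted as unchanged if the brighter group did not exceed that level. Bounds and means are of log2 values. The fit was tested on simulated data with the same spread in every group and few changed probes. Such data cannot show the effect of the unequal spread seen here.

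The 9 members were given by symbol, and the members, gene lists and alternatives were chosen with earlier results of these data known. Named genes are every member and probe, from each other list up to 3 passing genes per direction with the largest change at 49 days, at 15 days and in WT with age, or the largest 2 values where none passed, the 5 genes most alike in pattern, and Nsun2. The text gives those that bear on the members. Ptprb, Tie1, Selp and Vegfa each lie in 2 lists. The 4 slides each hold all 4 groups, with 1 or 2 arrays of each, and values within slides are means over those arrays. No arrays held identical values. Alternatives covered normalization, offset, filter, arrays in the fit, array weights, slide, replicate letter, probe choice and leaving out each array.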

Additional observations from a re-analysis of the deposited data

Results flagged for a closer look

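For Cdh5 at 15 days, KO replicate D (9.29) stood above the other 5 KO arrays (8.62 to 8.83), with a gap of 0.679 of the group's range. For Esam at 15 days, KO replicate E (10.12) stood above the other 5 (9.29 to 9.51), with a gap of 0.740 of the range. Both gaps passed Dixon's limit for 6 arrays. In all, 32 groups were examined and 2 passed it, and chance passes about 1 in 20 groups. Neither gene was called at 15 days with or without the array.

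The KO effect of Robo4 differed between ages by 2.83 on the log2 scale, by the test of the difference itself (limma adjusted p = 1.33e-04). It was 0.40 at 15 days and 3.23 at 49 days, where all 6 KO arrays lay above all 6 WT arrays.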

How the results depend on the processing

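Over 37 alternatives, 1407 of 1452 values of single endothelial genes kept their direction and their side of the threshold, 23 changed sign, 20 came to pass and 2 no longer passed; where no cause is given below, it was not tested. The Robo4 rise at 49 days passed in every alternative run, at 1.61 to 4.0. Limited to probes above background on all 24 arrays, 4 genes were left to test, and the counts called were 2 at 49 days, 2 for the difference between ages, 4 with age in WT and 3 with age in KO. At 15 days Emcn was called with only the 12 arrays of that age and with array weights, a count of 1 in both. The count for the difference was 2 with scale normalization, 2 with cyclic loess and 5 with array weights, and ran from 1 to 4 when single arrays were left out. Cyclic loess called 31.3% of genes higher and 39.3% lower at 49 days, against 46.8% and 26.5%. For the other alternatives the shares over all genes are not given, so their counts of members are not set against a background. Pecam1 at 49 days passed with array weights (adjusted p = 0.00491), without WT replicate D (0.0446) or without KO replicate B (0.0234).

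Most values that changed sign were near 0, with the exception of Robo4 with age in KO. Vwf at 49 days became 0.072 with scale normalization, 0.0019 with array weights and 0.018 with the slide as a block, and ran from -0.24 to 0.052 without single arrays. Egfl7 became 0.0025 at 49 days with array weights, and at 15 days 0.022 with scale normalization, 0.028 with array weights and -0.089 to 0.062 without single arrays. Tek at 15 days ran from -0.052 to 0.15 without single arrays. The difference between ages for Vwf became -0.11 with cyclic loess. Robo4 with age in KO became 0.26 with cyclic loess, 0.70 with array weights (adjusted p = 0.00149) and 0.040 with the mean of its probes, and ran from -0.36 to 0.22 without single arrays. Leaving out KO replicate B and WT replicate A of 15 days together, an alternative chosen after seeing the data, changed no count of members and gave Egfl7 at 15 days 0.023.

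The letters A to F are shared by the groups. Of 36 pairs of arrays with the same letter, 6 had deviations that correlated over 0.1. The median r was 0.036, against -0.0055 for 180 pairs with other letters. The letters were not used to pair samples in the main fit, and these correlations cannot exclude a pairing. With the replicate block, 6 members were called at 49 days, Pecam1 being added at 0.37 (adjusted p = 0.0494), and the counts of the other comparisons did not move. Signal over background limits what can be said of Kdr, Pecam1 and the dimmer probes.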
